A study of Mus musculus with 4 samples.

Results

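A set of 9 C-type lectin receptors of the Dectin and DCIR groups was followed in macrophages with and without RBP-J. The members, chosen by symbol, were Clec4a1, Clec4a3, Clec4a2, Clec4n, Clec4d, Clec4e, Clec12a, Clec7a and Clec5a, which are 9 of the 22026 genes in the deposited tables. All 9 had an entry in every library and all 9 passed the filter of a mean of at least 1 FPKM (read fragments corrected for the length of the transcript and the size of the library). RNA was sequenced from bone marrow derived macrophages of C57BL/6 mice aged 8 weeks, after 3 days of culture with CMG14-12 supernatant equivalent to 20 ng/ml of M-CSF, the growth factor of macrophages. The comparison has 2 genotypes with 2 libraries each: wildtype control (WT), and RBP-J KO with the genotype Rbpj f/f;LysM cre, in which Cre under the lysozyme M promoter of myeloid cells deletes Rbpj. The labels do not say whether the controls carry Cre or floxed alleles, nor whether a library came from 1 mouse or a pool. Nothing in the labels says that replicates came from separate cultures. The p-values here cover the spread among 4 libraries, in which replicate number goes with sex and table layout, as given below.

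C-type lectin receptors are surface proteins with which myeloid cells recognise sugars and lipids of microbes and of damaged cells. Dectin-1 (Clec7a) binds fungal beta-glucan, Dectin-2 (Clec4n) binds mannans, and Mincle (Clec4e) and MCL (Clec4d) bind mycobacterial glycolipids; they activate the cell through ITAM-type motifs of their own or of an adaptor. DCIR (Clec4a2) and MICL (Clec12a) carry an inhibitory motif that recruits phosphatases. In the mouse, most of these genes lie in 2 clusters on chromosome 6. In the order of the GRCm38.p6 RefSeq table, the Dectin-2 cluster runs Clec4a1, Clec4a3, Clec4a4, Clec4b1, Clec4a2, Clec4b2, Clec4n, Clec4d, Clec4e, and the Dectin-1 cluster runs Clec12a, Clec12b, Clec1b, Clec9a, Clec1a, Clec7a, Olr1. Clec5a lies elsewhere on chromosome 6.

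The 2 replicate 1 tables list genes and the 2 replicate 2 tables list transcripts, which were summed per gene, so values are also given inside each pair of equal replicate number (pair 1 and pair 2). The Y-linked Ddx3y reached 193 and 174 FPKM in replicate 1 and was listed at 0 in replicate 2, whereas Xist was listed at 0 in replicate 1 and reached 268 and 290 FPKM in replicate 2. Cells of replicate 1 were thus male and those of replicate 2 female in both genotypes. Libraries of 1 genotype therefore came from different mice, and the spread between them holds sex and table layout together. Rbpj measured 355 and 573 FPKM across the WT libraries against 51.5 and 77 FPKM with RBP-J KO, 7.06-fold lower (limma adjusted p = 0.457). The 8 macrophage markers were above 1 FPKM in every library, with summed levels between 12556 and 19091 FPKM. The sum hides single markers that differed between genotypes. Cd14 measured 1715 and 1570 FPKM across the WT libraries against 764 and 800 FPKM with RBP-J KO. Its level was 2.24-fold lower in pair 1 and 1.96-fold lower in pair 2. Lyz2, the lysozyme M gene whose promoter drives Cre here, was 2.30-fold lower in pair 1 and 1.66-fold lower in pair 2. The labels do not give the Cre status of the controls, and the part of the Cre allele in the Lyz2 level was not tested. Cd68 was also lower in both pairs, by at most 1.25-fold. Mertk and Fcgr1 were higher in both, and Csf1r, Emr1 and Itgam were higher in pair 1 and lower in pair 2. Markers of other cells differed between libraries. Summed over 11 neutrophil genes, the level was 7089 FPKM in WT replicate 1 and 8447 FPKM in RBP-J KO replicate 1, against 375 and 1169 FPKM in replicate 2. For 8 monocyte genes the sum came to 556 and 2014 FPKM in pair 1 and 231 and 595 FPKM in pair 2. For 9 dendritic cell genes the sum came to 13.8 and 92.7 FPKM in pair 1 and 12.7 and 18.6 FPKM in pair 2. Sequencing depth is unknown, since the tables hold no counts. In bulk RNA, a change in the number of expressing cells and a change in RNA per cell cannot be told apart.

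Dectin-2, MCL and Mincle are encoded by 3 adjacent genes, and the level of the first stood on the opposite side from the other 2 in RBP-J KO. Clec4n measured 476 and 585 FPKM (WT replicates 1 and 2), with 1219 and 1284 FPKM in the RBP-J KO libraries. Both RBP-J KO libraries lay above both WT libraries. The level was 2.37-fold higher (log2 difference 1.24, SE 0.20; limma, Benjamini-Hochberg adjusted p = 0.488 over all genes), with 2.56-fold in pair 1 and 2.19-fold in pair 2. Clec4d, the most abundant of the 9 receptors in every library, measured 2815 and 2755 FPKM in the 2 WT libraries, compared with 1551 and 1334 FPKM under RBP-J KO. The WT libraries were nearly equal and both lay above the RBP-J KO libraries. Its level was 1.94-fold lower (log2 difference -0.95, SE 0.20; limma adjusted p = 0.616), 1.81-fold in pair 1 and 2.06-fold in pair 2.

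Clec4e was lower in RBP-J KO in both pairs, by amounts that differed. It was at 104 and 201 FPKM in the WT libraries, and 82.6 and 80.8 FPKM with RBP-J KO. The groups did not overlap, but WT replicate 2 stood well above WT replicate 1, and the decrease was 1.25-fold in pair 1 and 2.47-fold in pair 2. The log2 difference of -0.81 (SE 0.36; limma adjusted p = 0.999) became -0.34 without WT replicate 2 and -1.29 without WT replicate 1.

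The ratio of Clec4n to its neighbour Clec4d, taken inside each library, is untouched by any single scaling factor per library. It was 0.169 and 0.212 in WT and 0.786 and 0.963 in RBP-J KO. Clec4n mRNA was a small fraction of Clec4d mRNA in both WT libraries and close to it in both RBP-J KO libraries. The log2 ratio averaged -2.40 ± 0.23 in WT and -0.20 ± 0.21 in RBP-J KO (SD, n = 2), a 4.58-fold shift, with log2 shifts of 2.21 in pair 1 and 2.18 in pair 2. An exact two-sided permutation test over the 4 libraries gave p = 0.333, the smallest that 2 against 2 libraries allow, and the genes were chosen with their directions known. The Clec4d to Clec4e ratio was 27.2 and 13.7 in WT and 18.8 and 16.5 in RBP-J KO, so that the RBP-J KO values lay between the WT values.

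Adjacent genes with opposite differences were counted over all tested genes, as a description. Of 7493 adjacent pairs of tested protein-coding genes, 15 (0.2%) had 1 gene at least 1.5-fold higher and the other at least 1.5-fold lower in both pairs, and Clec4n with Clec4d was among them. A further 96 adjacent pairs (1.28%) had both genes past this size in the same direction. Of single genes tested, 3.86% were at least 1.5-fold higher in both pairs and 3.63% at least 1.5-fold lower. Clec4n and Clec4d were chosen with their opposite directions known, so their place in this count is not a test.

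The 250 bases before the annotated start of Clec4d and Clec4e are shown because these neighbours were both lower in RBP-J KO. They were searched on both strands for TGGGAA, the core of the RBP-J binding sequence, and for GAGGAA, the core bound by PU.1, a transcription factor of myeloid cells. The longer forms GTGGGAA and GAGGAAGT, which contain these cores, and TGANTCA, bound by AP-1, were searched too. Capitals mark GAGGAA or its reverse complement. The sequences are from RefSeq, where 8 of the 9 receptors have such an entry, with 10 windows in all; Clec4n has none.
Clec4d (GRCm38.p6, chr6:123261857-123262106, plus strand): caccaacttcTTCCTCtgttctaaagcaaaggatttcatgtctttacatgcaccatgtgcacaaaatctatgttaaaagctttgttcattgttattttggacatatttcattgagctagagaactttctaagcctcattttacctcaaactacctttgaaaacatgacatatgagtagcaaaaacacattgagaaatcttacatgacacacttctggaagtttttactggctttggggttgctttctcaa
Clec4e (GRCm38.p6, chr6:123289872-123290121, minus strand): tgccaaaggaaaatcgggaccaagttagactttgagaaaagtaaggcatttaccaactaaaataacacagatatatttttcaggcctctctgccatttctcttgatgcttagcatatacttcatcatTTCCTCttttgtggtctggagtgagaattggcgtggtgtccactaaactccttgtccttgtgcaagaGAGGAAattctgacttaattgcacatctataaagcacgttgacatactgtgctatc
None of the 10 receptor windows held TGGGAA, which occurs in 21.6% of 32851 windows of the same length. GTGGGAA (5.42% of windows) and GAGGAAGT (2.44%) were also in none of them, and TGANTCA (6.75%) was in the Clec12a window. GAGGAA occurs in 23.3% of all windows. Clec4d held 1 match, starting 240 bases before the start site, and Clec4e held 2, starting 123 and 56 bases before it. A match is a description of the letters, not evidence of binding.

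**Figure D1:**
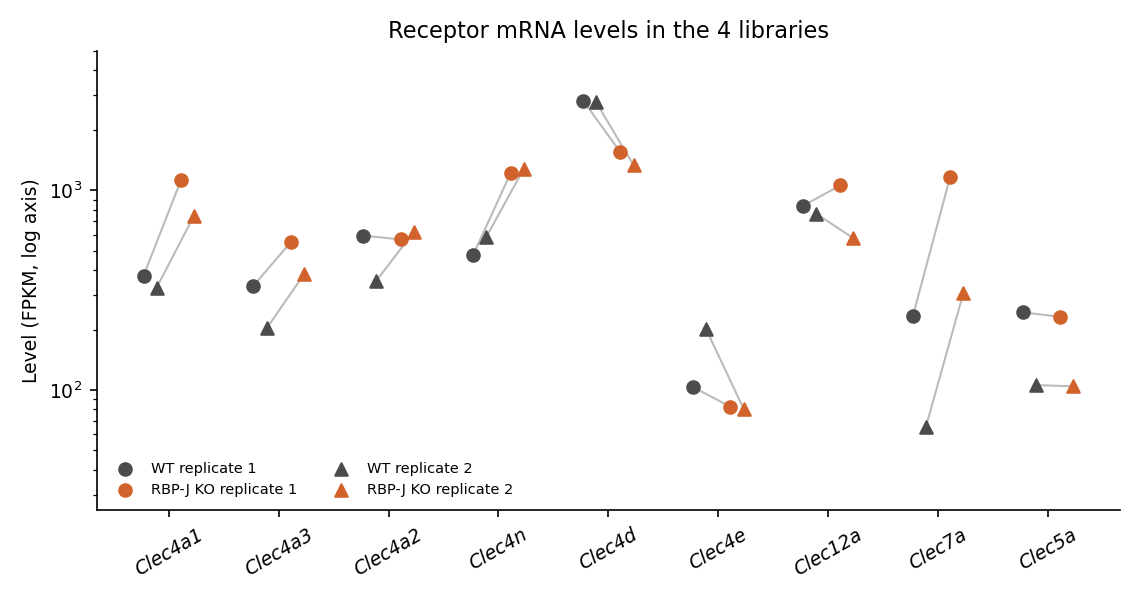
Levels of the 9 receptors in each library (y axis, FPKM on a log axis), with WT in dark grey and RBP-J KO in orange, circles for replicate 1 and triangles for replicate 2, and lines joining libraries of equal replicate number. Clec4n lines climb from 476 and 585 to 1219 and 1284 FPKM while Clec4d lines descend from 2815 and 2755 to 1551 and 1334 FPKM.

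Among the DCIR group, which occupies the other end of the Dectin-2 cluster, Clec4a1 and Clec4a3 were higher in RBP-J KO in both pairs and Clec4a2 in pair 2 alone. Clec4a1, or Dcir4, measured 373 and 326 FPKM across the WT libraries against 1122 and 748 FPKM with RBP-J KO. Both RBP-J KO libraries were above both WT libraries. The level was 2.62-fold higher (log2 difference 1.39, SE 0.27; limma adjusted p = 0.581), 3.00-fold in pair 1 and 2.29-fold in pair 2. Clec4a3, or Dcir3, measured 333 and 204 FPKM (WT replicates 1 and 2), with 550 and 380 FPKM in the RBP-J KO libraries. The groups did not overlap, though WT replicate 1 came near RBP-J KO replicate 2, and the difference was 1.65-fold in pair 1 and 1.86-fold in pair 2 (log2 difference 0.81, SE 0.34; limma adjusted p = 0.999). Clec4a2, which encodes the inhibitory receptor DCIR itself, measured 594 and 353 FPKM in the 2 WT libraries, compared with 568 and 622 FPKM under RBP-J KO. The groups overlapped, with 3 libraries close together and WT replicate 2 below them. Its log2 difference of 0.38 (SE 0.30; limma adjusted p = 0.999) was -0.06 in pair 1 and 0.82 in pair 2, and it was 0.0025 without WT replicate 2.

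The upstream 250 bases of Clec4a1 are shown as those of the DCIR gene with the largest difference, with GAGGAA or its reverse complement in capitals.
Clec4a1 (GRCm38.p6, chr6:122921598-122921847, plus strand): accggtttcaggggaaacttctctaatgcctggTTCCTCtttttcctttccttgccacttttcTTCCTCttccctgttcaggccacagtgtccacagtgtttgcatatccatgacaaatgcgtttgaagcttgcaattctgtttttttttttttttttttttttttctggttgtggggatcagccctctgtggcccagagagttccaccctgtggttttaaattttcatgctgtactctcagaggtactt
Clec4a1 held 2 matches, starting 217 and 187 bases before the start site. The Clec4a2 window held 0, and the Clec4a3 windows held 0 and 1. Clec12a and Clec5a, whose log2 differences between genotypes lay near 0, held 2 matches each. Matches were thus not confined to receptors that differed between genotypes.

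The remaining genes of the Dectin-2 cluster, which lie among the DCIR genes or next to Clec4n, were at lower levels. Clec4b1, which encodes the activating receptor DCAR, measured 94.7 and 61.5 FPKM across the WT libraries against 137 and 180 FPKM with RBP-J KO. Its difference was 1.44-fold in pair 1 and 2.89-fold in pair 2 (limma adjusted p = 0.912). Clec4a4, or Dcir2, measured 98.3 and 48.8 FPKM (WT replicates 1 and 2), with 96.3 and 93.5 FPKM in the RBP-J KO libraries, with WT replicate 2 alone standing low, as for Clec4a2. Clec4b2 measured 5.82 and 0 FPKM in the 2 WT libraries, compared with 9.63 and 1.97 FPKM under RBP-J KO. Some reads of Clec4a2, Clec4a4 and Clec4b1 cannot be told apart. In the Clec4a2 transcript NM_001170333, 182 of the 1212 windows of 50 bases (15.0%) also occur in transcripts of Clec4a4 or Clec4b1. This share was 19.9% for NM_001170332 and 7.48% for NM_011999, the main entry of the gene. How the authors' tool divided shared reads could thus affect these 3 genes. Counting all other genes, NM_011999 shared 8.92% of its windows, with 447 genes. The transcripts of the other 8 receptors shared 0 such windows with another Clec gene, and 2 Clec4n transcripts shared 11 windows with 1 other gene.

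**Figure D2:**
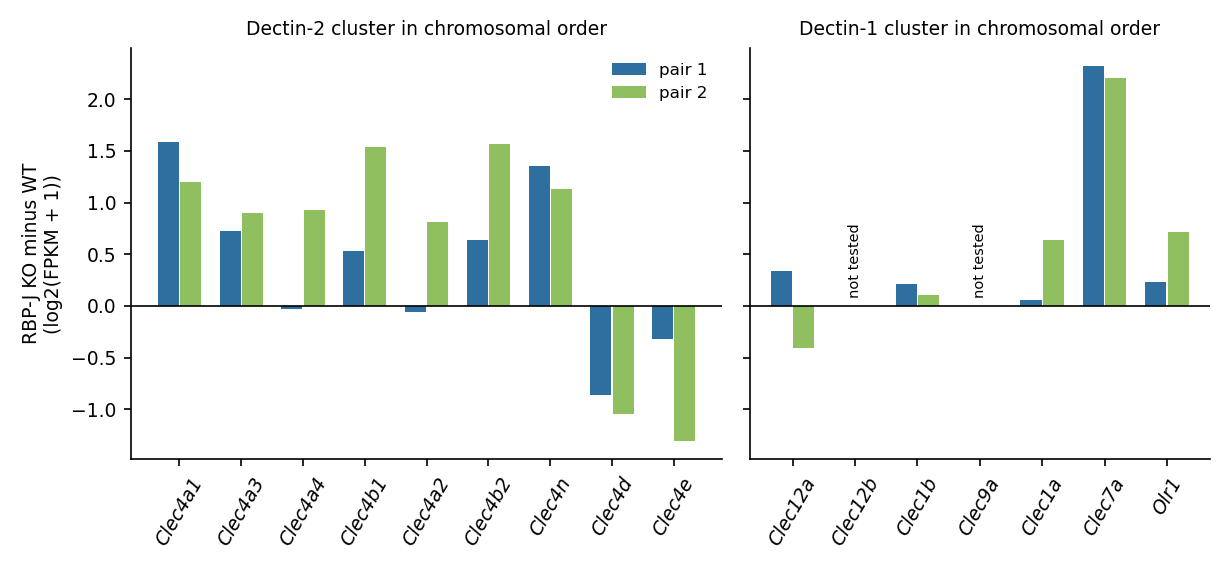
RBP-J KO minus WT difference on the log2(FPKM + 1) scale (y axis) for the genes of the Dectin-2 and Dectin-1 clusters in chromosomal order, with 1 bar per pair of equal replicate number and genes under the filter written as not tested. In the Dectin-2 cluster bars point upward in pair 2 from Clec4a1 to Clec4n and downward in both pairs at Clec4d and Clec4e; in the Dectin-1 cluster Clec7a has the tallest bars, 2.32 and 2.20.

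Dectin-1 had the largest difference of the 9 receptors. Clec7a measured 234 and 65.7 FPKM across the WT libraries against 1170 and 306 FPKM with RBP-J KO. Both RBP-J KO libraries were above both WT libraries, but RBP-J KO replicate 2 was only a little above WT replicate 1. Inside the pairs the difference was nearly equal, 4.98-fold in pair 1 and 4.61-fold in pair 2. Over all libraries it was 4.79-fold (log2 difference 2.26, SE 0.90; limma adjusted p = 0.999). Replicate 1 was 3.56-fold above replicate 2 in WT and 3.82-fold in RBP-J KO. The log2 difference was 1.30 without RBP-J KO replicate 1 and 1.35 without WT replicate 2, but 3.23 without RBP-J KO replicate 2 and 3.17 without WT replicate 1. Summed neutrophil, monocyte and dendritic cell markers also stood higher in replicate 1 than in replicate 2 in both genotypes. Their part in the spread of Clec7a was not tested.

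The upstream 250 bases of Clec7a are shown because this gene had the largest difference, with GAGGAA in capitals; a second RefSeq window begins 6 bases away and holds the same match.
Clec7a (GRCm38.p6, chr6:129472780-129473029, minus strand): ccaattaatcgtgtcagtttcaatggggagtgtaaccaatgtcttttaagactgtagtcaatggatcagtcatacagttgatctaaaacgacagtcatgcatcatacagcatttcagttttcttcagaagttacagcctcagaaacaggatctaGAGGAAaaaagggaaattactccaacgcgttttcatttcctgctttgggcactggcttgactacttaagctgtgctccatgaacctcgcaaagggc
Clec7a held 1 match, starting 96 bases before the start site. The RefSeq table also places the non-coding gene Gm45969 across Clec7a and Olr1, and no source used here says that counting used strand.

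Clec12a, at the other end of the Dectin-1 cluster, had no common direction. The gene encodes MICL, an inhibitory receptor for uric acid crystals. It measured 836 and 766 FPKM (WT replicates 1 and 2), with 1059 and 576 FPKM in the RBP-J KO libraries. The RBP-J KO libraries lay on either side of the WT libraries, with 1.27-fold higher in pair 1 and 1.33-fold lower in pair 2 (log2 difference -0.03, SE 0.34; limma adjusted p = 0.999). The sign of this difference turned to positive under quantile normalization and median scaling, and to 0.40 without RBP-J KO replicate 2 and 0.029 without WT replicate 1. The ratio of Clec7a to Clec12a inside a library was 0.280 and 0.0858 in WT and 1.10 and 0.532 in RBP-J KO. Both RBP-J KO values lay above both WT values. The exact two-sided permutation p was 0.333, the smallest possible, and the genes were chosen with earlier results known.

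The genes between and beside Clec12a and Clec7a were little expressed. Clec1b, the receptor CLEC-2 best known from platelets, measured 18.9 and 2.15 FPKM in the 2 WT libraries, compared with 22.1 and 2.39 FPKM under RBP-J KO, higher in replicate 1 of both genotypes. Olr1, the oxidised lipoprotein receptor LOX-1, measured 3.24 and 0 FPKM across the WT libraries against 3.96 and 0.64 FPKM with RBP-J KO. Clec1a lay between 0.85 and 1.89 FPKM. Clec9a, a receptor of cross-presenting dendritic cells, had 0.98 and 2.71 FPKM in pair 1 and was listed at 0 in pair 2, and Clec12b was listed at 0 in every library.

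Clec5a, which encodes MDL-1, an activating receptor that signals through the adaptor DAP12, differed between replicate numbers but hardly between genotypes. It measured 245 and 106 FPKM (WT replicates 1 and 2), with 233 and 105 FPKM in the RBP-J KO libraries. In each pair the RBP-J KO library was just below its WT library, by 1.05-fold and 1.01-fold, while replicate 1 was 2.31-fold above replicate 2 in WT. The log2 difference was -0.05 (SE 0.58; limma adjusted p = 0.999), and its sign turned under median scaling. It was 0.53 without RBP-J KO replicate 2 and 0.55 without WT replicate 1, so that single libraries set its sign.

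Counted together, 4 of the 9 receptors (Clec4a1, Clec4a3, Clec4n and Clec7a) were at least 1.5-fold higher in RBP-J KO in both pairs, beside 3.86% of all 11851 genes tested, and 1 (Clec4d) was at least 1.5-fold lower, beside 3.63%. The RBP-J KO libraries lay wholly above the WT libraries for the same 4 receptors (11.7% of all genes) and wholly below for Clec4d and Clec4e (18.2%). Differences of any size had 1 sign in both pairs for 4 higher receptors (25.1% of all genes) and 3 lower receptors, Clec4d, Clec4e and Clec5a (34.1%). At an unadjusted limma p under 0.05 there were 2 higher receptors, Clec4n and Clec4a1 (2.19% of all genes), and 1 lower, Clec4d (2.24%). After Benjamini-Hochberg adjustment 0 receptors passed 0.05, and 0% of all genes did, where 524 of them had an unadjusted p under 0.05. The median log2 difference was 0.38 over the receptors and -0.05 over all genes tested. The receptors were chosen with earlier results known, so these counts describe them and are not a test.

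The summed receptor mRNA overlapped between the genotypes, while the shares of several receptors in it did not. FPKM summed over the 9 receptors was 6010 and 5362 in WT and 7555 and 5435 in RBP-J KO. Of this sum Clec4d held 46.8% and 51.4% in WT and 20.5% and 24.5% in RBP-J KO. Clec4d was the highest of the 9 in each library. Clec4n held 7.92% and 10.9% in WT and 16.1% and 23.6% in RBP-J KO, and Clec4a1 held 6.21% and 6.08% in WT and 14.9% and 13.8% in RBP-J KO. For these 3 genes the shares of the 2 genotypes did not overlap. Clec7a held 3.89% and 1.23% in WT and 15.5% and 5.64% in RBP-J KO, again without overlap. Shares of Clec4a3 and Clec4e did not overlap either, and those of Clec4a2, Clec12a and Clec5a did. In levels rather than shares, RBP-J KO lay wholly above WT for 11.7% of all genes tested and wholly below for 18.2%. The shares are parts of the same sum, so they are not independent of each other. These shares compare FPKM, a level per transcript length, and assume that it is scaled alike for each gene.

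**Figure D3:**
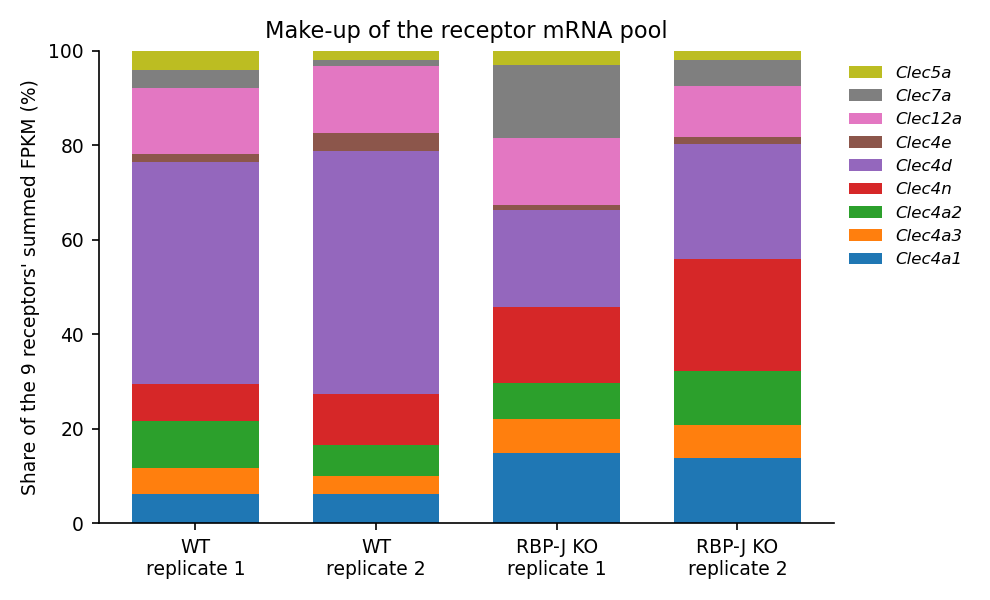
Share of each receptor (stacked colours) in the FPKM summed over the 9 receptors, as a percentage (y axis), for the 4 libraries (x axis). The Clec4d block takes 46.8% and 51.4% of the WT columns and 20.5% and 24.5% of the RBP-J KO columns.

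The replicate 2 tables give values per transcript, 16 for the 9 receptors, with more than 1 for Clec4a2, Clec4a3, Clec4d, Clec4n and Clec5a. With 1 library per genotype in that layout there is no test of these values. The exons that distinguish 3 of the genes are shown, taken from GENCODE M21 transcripts matched by RefSeq accession; each is wholly coding and a multiple of 3 bases long.
Clec4n, exon 2 of NM_020001, absent from NM_001190320: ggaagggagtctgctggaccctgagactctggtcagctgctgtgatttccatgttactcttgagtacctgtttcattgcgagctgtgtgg
Clec4n, exon 3 of NM_020001, absent from NM_001190321: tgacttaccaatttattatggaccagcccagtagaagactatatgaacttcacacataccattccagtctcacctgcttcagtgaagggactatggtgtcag
Clec4a2, exon 4 of NM_001170333, absent from the other 2 transcripts: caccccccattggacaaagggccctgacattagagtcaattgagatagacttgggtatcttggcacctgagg
Clec5a, exon 3 of NM_001038604, absent from NM_021364: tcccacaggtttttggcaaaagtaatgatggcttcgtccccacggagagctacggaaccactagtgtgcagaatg

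The Clec4n transcripts did not differ equally. NM_020001, with both exons, went from 385 FPKM to 942 FPKM with RBP-J KO, a ratio of 2.45, and NM_001190321, which lacks the 102 bases of exon 3, was at 200 and 341 FPKM, a ratio of 1.70. The share of NM_020001 in the gene was 65.7% in WT and 73.4% in RBP-J KO. NM_001190320, without the 90 bases of exon 2, was at 0.35 and 0.41 FPKM. Both Clec4d entries were lower, NM_010819 at 2468 and 1206 FPKM and NM_001163161 at 287 and 128 FPKM, and the first made up 89.6% and 90.4% of the gene. All 3 Clec4a2 entries were higher in this pair, with ratios of 1.41 for NM_001170332, 2.13 for NM_001170333, which has the extra 72 bases, and 1.76 for NM_011999, the main entry at 278 and 491 FPKM. Clec4a3 had ratios of 1.70 for NM_001204241 and 2.16 for NM_153197. The Clec5a entry with the 75 bases of exon 3 measured 51.5 FPKM in WT replicate 2 and 52.1 FPKM in RBP-J KO replicate 2. The entry without them measured 54.4 and 52.4 FPKM in the same libraries.

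**Figure D4:**
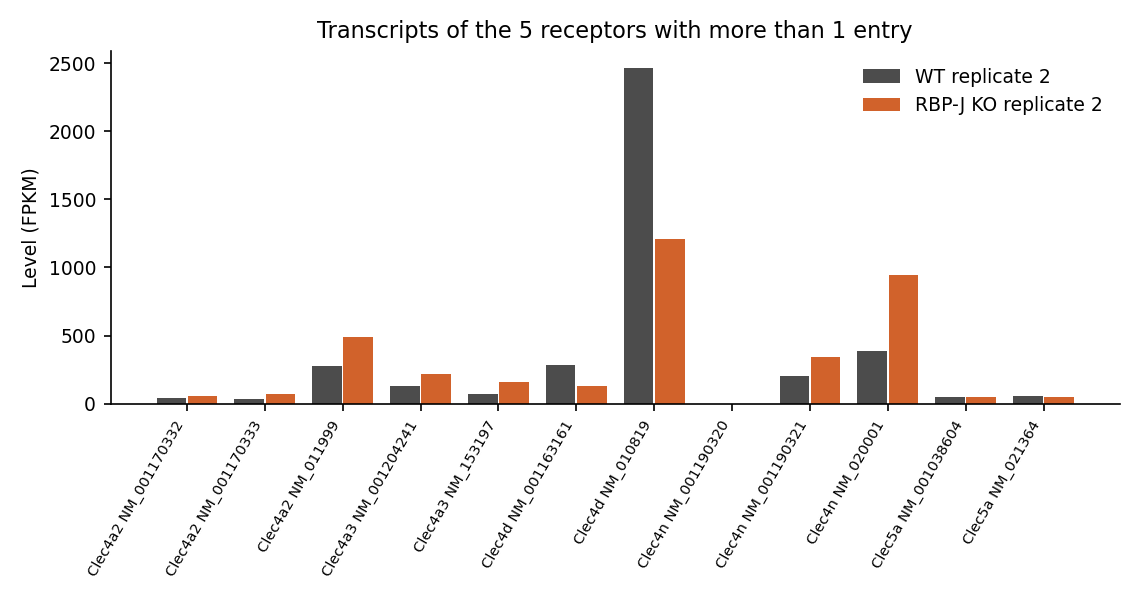
Level in FPKM (y axis) of each transcript of the 5 receptors with more than 1 entry in the replicate 2 tables (x axis), WT in dark grey and RBP-J KO in orange, 1 library each. Both Clec4d bars are lower in RBP-J KO, with 2468 and 1206 FPKM for NM_010819, whereas NM_020001 of Clec4n goes from 385 to 942 FPKM.

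Adaptors and signal transducers carry the signal of these receptors into the cell. Of 21 tested genes of ITAM adaptors and activating signalling, 2 were higher and 0 lower at an unadjusted limma p under 0.05 (2.19% and 2.24% of all genes), with a median log2 difference of 0.17. Lcp2, the adaptor SLP-76, measured 272 and 230 FPKM across the WT libraries against 405 and 518 FPKM with RBP-J KO (limma adjusted p = 0.745). Lyn, a Src family kinase, measured 752 and 443 FPKM in the 2 WT libraries, compared with 1023 and 923 FPKM under RBP-J KO. Lyn did not pass the unadjusted threshold and was not among the 2 genes counted as higher. Fcer1g, the FcR gamma chain with which Clec4n, Clec4d and Clec4e pair, measured 5894 and 6060 FPKM across the WT libraries against 7729 and 6858 FPKM with RBP-J KO, a 1.22-fold difference, and Tyrobp, which encodes DAP12, was 1.23-fold higher. Card9, the adaptor that carries the signal to NF-kB, measured 97.0 and 172 FPKM (WT replicates 1 and 2), with 115 and 154 FPKM in the RBP-J KO libraries, with overlapping groups. Fcer1g, Tyrobp and Card9 were picked for their roles after values were seen.

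On the inhibitory side, 9 phosphatase and regulator genes were tested, of which 0 were higher and 1 lower at an unadjusted limma p under 0.05 (2.19% and 2.24% of all genes), with a median log2 difference of 0.11. The lower gene, Cblb, an E3 ubiquitin ligase that targets Dectin receptors, measured 59.3 and 45.8 FPKM in the 2 WT libraries, compared with 33.4 and 25.7 FPKM under RBP-J KO. This was a 1.75-fold decrease in pair 1 and again in pair 2 (limma adjusted p = 0.999). Ptpn6, the phosphatase SHP-1 that binds inhibitory motifs such as that of DCIR, measured 845 and 805 FPKM across the WT libraries against 1354 and 1039 FPKM with RBP-J KO, without overlap (limma adjusted p = 0.999). Dok3 measured 112 and 149 FPKM (WT replicates 1 and 2), with 180 and 171 FPKM in the RBP-J KO libraries.

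Response genes of these receptors, mostly cytokines, showed 0 higher and 0 lower at an unadjusted limma p under 0.05 among 15 tested (2.19% and 2.24% of all genes), with a median log2 difference of 0.12. Il1b measured 2.83 and 0 FPKM in the 2 WT libraries, compared with 57.1 and 4.48 FPKM under RBP-J KO, and Il1a measured 1.24 and 0 FPKM in the WT libraries against 8.83 and 1.40 FPKM with RBP-J KO. These were the 2 members at least 1.5-fold higher in both pairs, a size reached by 3.86% of all genes. Ccl4, a chemokine, measured 598 and 540 FPKM across the WT libraries against 411 and 461 FPKM with RBP-J KO.

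Markers of other cells also differed between genotypes, to an extent that varied by gene and pair. Macrophage markers had no common direction, with a median log2 difference of 0.38 in pair 1 and -0.26 in pair 2 over 8 genes. Cd14, Lyz2 and Cd68 were lower in RBP-J KO in both pairs, the direction of Clec4d and Clec4e. Mertk and Fcgr1 were higher in both pairs, and Csf1r, Emr1 and Itgam were higher in pair 1 alone. Lyz2 is the gene of the Cre promoter, as given above. The 8 monocyte genes had a median log2 difference of 1.32 in pair 1 and 1.14 in pair 2, in the direction of Clec4a1, Clec4n and Clec7a and opposite to Clec4d and Clec4e. For the 11 neutrophil genes the median was 0.31 in pair 1 against 1.85 in pair 2, and their summed level was higher in RBP-J KO in both pairs. In pair 1 Ngp, Ltf and Mmp8 were lower in RBP-J KO (log2 differences -0.04, -0.04 and -0.34) and the other neutrophil genes higher. Among dendritic cell genes 7 passed the filter, their median being 1.96 in pair 1 and 0.51 in pair 2. Of the 9 dendritic cell genes, all 9 were above 1 FPKM in RBP-J KO replicate 1 and 3 in each other library. Their summed level was higher in RBP-J KO in both pairs. In pair 2 Batf3 alone gave 10.3 of 12.7 FPKM in WT and 15.4 of 18.6 FPKM in RBP-J KO. Cd209a went from 1.30 to 0 FPKM there. Among B cell genes Ebf1 was listed at 0 in every library, and among T and NK cell genes Cd3d and Ncr1 were. Summed levels were at most 37.2 FPKM for B cell genes and 5.37 FPKM for T and NK cell genes. The part of monocytes, neutrophils, dendritic cells and the other cells in the receptor differences was not tested.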

How the data were processed

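RNA-seq libraries of WT and RBP-J KO macrophages, 2 each, were used. TopHat, Cufflinks and the mm9 build are named, per the submitters' processing notes; which versions and which annotation served is not given in the sources used here. Values the authors deposited are taken to be FPKM, the unit of Cufflinks, although the file headers name none and the absolute scale is unclear. Transcript rows were summed per symbol, and 25 symbols stored as dates were restored. Genes averaging 1 FPKM or more (11851) entered a fit of log2(FPKM + 1) with limma 3.58.1 in R 4.3.3, with genotype alone in the model, a mean-variance trend, and p adjusted by Benjamini-Hochberg (two-sided, threshold 0.05). Fold changes are on this scale and understate the change of low genes. The script was tested on simulated data. The members and gene lists were chosen with earlier results of these data known. Named genes were Rbpj, the 9 receptors, expressed genes of their clusters, and up to 3 genes per list with the smallest p. A gene that this rule names is not reported here. Alternatives covered pseudocount, filter, scaling, transcript choice, variance trend, replicate block and each library left out. Promoters and gene order are of another build, GRCm38.p6, and were used only as annotation. Figures were drawn with matplotlib 3.10.9.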

Additional observations from a re-analysis of the deposited data

How the results depend on the processing

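The number of genes past the adjusted threshold was 0 under all 13 alternatives. Counts of genes at least 1.5-fold higher or lower in both pairs fell to 265 and 210 with a pseudocount of 10, from 457 and 430, and stayed within 1.5 times under the other filters, scalings and transcript choice; the same 4 higher and 1 lower receptors were found in each of these. Apart from Clec12a and Clec5a, the 7 receptors kept their direction in all 13 alternatives. Clec12a turned to 0.020 under median scaling and 0.014 under quantile normalization, and ranged from -0.47 to 0.40 with a library left out, with 0.40 without RBP-J KO replicate 2 and 0.029 without WT replicate 1. Clec5a turned to 0.0075 under median scaling, and ranged from -0.65 to 0.55 with a library left out, with 0.53 without RBP-J KO replicate 2 and 0.55 without WT replicate 1. Both lie near 0, and the cause was not tested. The log2 shift of the Clec4n to Clec4d ratio stayed between 2.03 and 2.36 with a library left out. Labels do not say whether libraries of equal replicate number were prepared together. Deviations from the group means correlated between such libraries (r = 0.64 across 11851 genes). The replicate numbers also differ in table layout, sex and neutrophil marker levels, which cannot be told apart from shared preparation here. With the replicate block 0 genes passed the adjusted threshold, and 1557 had an unadjusted limma p under 0.05 against 524 without it. The shift of the Clec4n to Clec4d ratio was again 2.20. The block moved no receptor past the adjusted threshold. Adjusted limma p was 0.064 for Clec7a, 0.092 for Clec4n and Clec4a1, and 0.109 for Clec4d. Unadjusted limma p came under 0.05 with the block alone for Clec7a (5.1e-05), Clec4a3 (0.0035) and Clec4e (0.041). It stayed above 0.05 for Clec4a2, Clec12a and Clec5a. Read depth is unknown and limits the precision of low values.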

Other observations

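Other C-type lectin receptors of myeloid cells showed no common direction. Of 11 tested, 0 were higher and 0 lower at an unadjusted limma p under 0.05 (2.19% and 2.24% of all genes), and the median log2 difference was -0.02, with 0.43 in pair 1 and -0.22 in pair 2. Colec12, a scavenger receptor with a lectin domain, measured 743 and 745 FPKM (WT replicates 1 and 2), with 338 and 576 FPKM in the RBP-J KO libraries. Clec10a, the galactose-type lectin, measured 58.5 and 92.1 FPKM in the 2 WT libraries, compared with 22.1 and 78.5 FPKM under RBP-J KO. Clec2d, a ligand of an inhibitory NK cell receptor, measured 135 and 188 FPKM across the WT libraries against 238 and 161 FPKM with RBP-J KO. Mrc1, the mannose receptor, named for its role and with its values in view, was 1.66-fold lower in pair 1 and 1.52-fold lower in pair 2, the only member of this list at least 1.5-fold lower in both (3.63% of all genes), but replicate 2 stood above replicate 1 in both genotypes (1351 and 4263 FPKM for WT replicates 1 and 2, 813 and 2807 FPKM for the knockouts).

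Of 12 tested transcription factors of these cells, 1 was higher and 1 lower at an unadjusted limma p under 0.05 (2.19% and 2.24% of all genes). Spic, known from red pulp macrophages, measured 13.3 and 6.54 FPKM (WT replicates 1 and 2), with 103 and 62.5 FPKM in the RBP-J KO libraries. Klf4, a factor of monocyte differentiation, measured 13.2 and 27.2 FPKM in the 2 WT libraries, compared with 4.45 and 5.39 FPKM under RBP-J KO, 2.60-fold lower in pair 1 and 4.42-fold lower in pair 2. Hif1a measured 292 and 221 FPKM across the WT libraries against 198 and 166 FPKM with RBP-J KO. The adjusted limma p was 0.488 for Spic and 0.726 for Klf4.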
